A study of Mus musculus with 10 samples.

Results

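The genes described here carry glucose into the cell, break it down to pyruvate and lactate, and store or release it as glycogen. They are 34 named genes out of the 48397 gene symbols counted in each library, taken by symbol, and all 34 had counts high enough to be tested. Bulk RNA sequencing compared left atria of wild-type mice, with 5 libraries from mice whose transverse aorta was constricted (TAC) and 5 libraries from mice given a Sham procedure. TAC narrows the aortic arch, so that the left ventricle pumps, and the left atrium behind it fills, against a raised load. Surgery was done at 2 months of age on male C57BL/6J mice, a strain and sex named in the series' design text, and tissue was taken 2 weeks later. The sample labels call the tissue left atrium and the design text calls it left appendage, and neither source states that the libraries are from separate animals. The p-values therefore cover the spread between these libraries, part of which may be technical.

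A cell takes up glucose through transporters of the GLUT family, traps it with hexokinase, commits it to glycolysis with phosphofructokinase and ends at pyruvate, which lactate dehydrogenase turns to lactate and back. Several of these steps have more than 1 gene. Adult striated muscle uses its own isozymes, such as the insulin-responsive transporter GLUT4 and the muscle forms of phosphofructokinase, phosphoglycerate mutase, enolase and glycogen phosphorylase. Most other tissues, and the embryonic heart for some steps, use widespread or other-tissue forms of the same enzymes. The adult heart burns mostly fatty acids and takes up lactate as a fuel, and a greater use of glucose is a known feature of the heart under pressure overload. The 34 genes were divided by this background into 11 muscle or heart isozymes, 15 widespread or other-tissue isozymes and 8 genes with no isozyme partner among them. For the lactate genes the labels contrast heart with glycolytic tissue, and not muscle with other tissues. Ldhb and Slc16a1 were classed as muscle or heart forms, and Ldha and Slc16a3 as widespread or other-tissue forms. Gys1 was classed as a muscle form although its relative Gys2 is not among the 34. The counts by class below rest on these labels, and other divisions were not tested.

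Total counts over genes ran from 29493200 to 41358617 in TAC libraries and from 17117306 to 43956384 in Sham libraries, of which Sham 1 and 2 were the shallowest. The 34 genes took 1.10% ± 0.1001 of counts in TAC and 1.20% ± 0.0271 in Sham (SD, n = 5 each). Levels are given as CPM, counts relative to the size of each library, which was normalised with TMM factors, and changes as log2 fold changes of TAC over Sham from edgeR's quasi-likelihood test with its standard error (SE). A gene was called higher or lower at a Benjamini-Hochberg adjusted p under 0.05 over all 15175 tested genes. The atrial identity of the tissue was visible in both groups, with the atrial light chain gene Myl4 at 6409 ± 815 CPM in TAC and 11628 ± 867 CPM in Sham. Among the TAC libraries, replicate 1 stood apart: it was the highest of the 5 for 10 of the 12 glucose genes called lower and the lowest for 5 of the 11 called higher.

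Most of the muscle or heart isozymes were lower, and most of the widespread or other-tissue isozymes higher, in the TAC atrium. Of the 34 genes, 11 were higher and 12 lower in TAC, 32.4% and 35.3% of them, beside a background of 28.9% higher and 27.9% lower (56.8% in either direction) among all tested genes. By count alone the whole set therefore stood near the background, and its median log2 fold change of -0.21 stood beside 0.01 over all tested genes. The isozyme classes were set with earlier results of these data known, so the split by class is a description and not a test. Divided by isozyme, 9 of the 11 muscle or heart forms were lower and 0 higher, with a median of -0.99. Of the 15 widespread or other-tissue forms, 10 were higher and 0 lower, with a median of 0.58. The genes without a partner had 1 call upward and 3 downward among 8. CPM did not overlap between TAC and Sham libraries for 19 of the 34 genes, beside 41.7% of all tested genes, and these 19 included 8 muscle or heart forms and 8 widespread forms. Left without TAC replicate 1, the fit called 12 of the 34 genes higher and 15 lower.

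**Figure D1:**
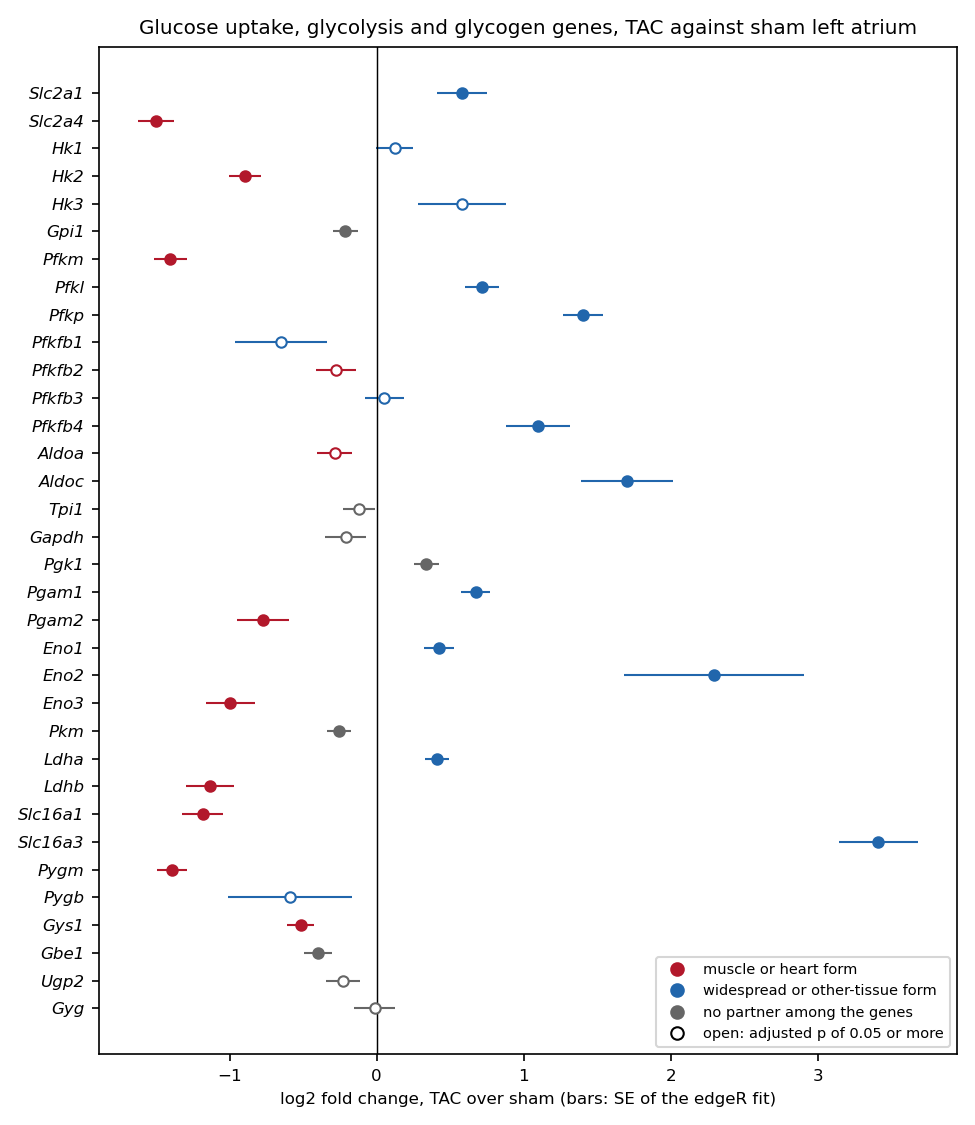
Log2 fold change of TAC over Sham for each of the 34 genes, ordered along the pathway, with bars for the standard error of the edgeR fit (n = 5 libraries in each group). Filled points passed an adjusted p of 0.05 and open points did not: the called muscle or heart forms (red) all lie left of 0 and the called widespread forms (blue) all lie right of it.

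These counts depend on the scale to which the groups were set. Scaled by total counts alone, all tested genes had a median log2 fold change of 0.37 and the 34 genes one of 0.14, with 16 of the 34 called higher and 8 lower. That scaling called 51% of all tested genes higher and 12.7% lower. The number of the 34 called higher was therefore again near the background, while the 8 called lower were a larger share than the background. The muscle forms then had 8 calls downward and 0 upward and the widespread forms 13 upward and 0 downward, so the opposite directions of both classes stood under either scaling. A ratio of both isozymes inside 1 library does not depend on the scaling, and such ratios are given below for each step.

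In RNA from whole tissue, fewer cells of a type and less RNA per cell cannot be told apart. Markers of heart muscle cells moved with the muscle isozymes: all 10 of a list that included Myh6, Tnni3 and Myl7 were lower in TAC, with a median of -1.12 and a range of -2.04 to -0.52, and 7 of the 10 were called lower with scaling by total counts alone. The summed level of the 10 ran from 37319 to 50992 CPM in TAC libraries and from 84356 to 100806 CPM in Sham libraries. Fibroblast markers were higher for 6 and lower for 1 of 8 (summed level 5741 to 13499 CPM in TAC, 1987 to 2645 CPM in Sham). All 8 macrophage markers (736 to 1218 CPM in TAC, 301 to 526 CPM in Sham) and all 6 genes of dividing cells (137 to 506 CPM in TAC, 2.93 to 20.6 CPM in Sham) were higher. The part of these cell types in the isozyme results was not tested.

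Other marker lists moved less evenly. Smooth muscle cell and pericyte markers were higher for 4 of 6. Endothelial markers were higher for 2 and lower for 2 of 7. All 5 erythroid genes were higher, and 3 of 4 tested neutrophil genes were higher and 1 lower, at a sum of 5.20 to 11.1 CPM in TAC and 6.42 to 7.76 CPM in Sham. All 4 tested white adipocyte markers were lower (0.274 to 8.46 CPM summed in TAC, 12.0 to 50.8 CPM in Sham), and Ucp1 of the brown adipocyte list lay under 1 CPM in every library, while 2 of its 3 tested genes were lower. Of the skeletal muscle list, whose fibres share several of these isozymes, Myh1, Myh2, Myh4 and Pvalb lay under 1 CPM in every library, and 3 of 6 tested genes were higher and 1 lower. In that list, and named after their values were seen, Tnnt3, a fast skeletal troponin T gene, averaged 142 ± 79.7 CPM in TAC and 1.29 ± 0.611 CPM in Sham (log2 fold change 6.76), Acta1, the skeletal actin gene that the heart also uses, 104 ± 107 CPM in TAC and 3.70 ± 2.48 CPM in Sham (4.78), and Ckm, the muscle creatine kinase gene, 202 ± 124 CPM in TAC and 838 ± 122 CPM in Sham (-2.05). The part of skeletal muscle fibres in the isozyme results was not tested. Ventricular markers were lower for 2 of 3, Schwann cell or neuron markers for 2 of 3, mesothelial markers higher for 1 of 5, neither of the 2 tested lymphocyte markers was called, and no lung epithelium gene was tested.

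Glucose entry showed the opposite movement of isozymes most simply. Slc2a4, which encodes GLUT4, the transporter that insulin and contraction bring to the surface of muscle cells, lies on chromosome 11, 69942539 to 69948188 (GRCm38, minus strand). It stood at 199, 123, 138, 153 and 171 CPM in TAC replicates 1 to 5, against 410.5, 443, 441, 443 and 478 CPM in Sham replicates 1 to 5. Every TAC library lay far below every Sham library. The log2 fold change was -1.50 (SE 0.12, edgeR adjusted p = 3.05e-06). Slc2a1, which encodes the widespread transporter GLUT1, had 22.9, 35.4, 23.0, 30.1 and 37.4 CPM in TAC, against 19.5, 25.8, 15.5, 17.5 and 21.4 CPM in Sham. TAC replicates 1 and 3 fell inside the Sham range, and the rise of 0.58 (SE 0.17, edgeR adjusted p = 0.0127) passed the test. Per kilobase of exon, Slc2a1 made up 16.2% ± 4.41 of the transcripts of both transporters in TAC and 4.27% ± 0.794 in Sham (SD, n = 5 each). Here and below the length is that of all annotated exons merged, which can exceed the transcript in use. Levels, shares and ratios per kilobase depend on these lengths, while log2 differences of a ratio between the groups do not. The ratio of Slc2a4 to Slc2a1 per kilobase ran from 3.51 to 8.75 in TAC and from 17.3 to 28.6 in Sham, a difference of -2.09 (SE 0.25) on the log2 scale. Slc2a4 remained the more abundant transporter transcript in all libraries of both groups.

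Hexokinase phosphorylates the glucose that has entered. Hk2, the form of insulin-sensitive muscle, had 105, 148, 125, 144 and 128 CPM in TAC, against 227, 292, 232, 245 and 214 CPM in Sham. All TAC libraries lay below all Sham libraries, and the fall was 0.90 on the log2 scale (SE 0.11, edgeR adjusted p = 4.65e-05). Hk1, the form found in most tissues, had 333, 321, 367, 319 and 332 CPM in TAC and 241, 361, 357, 335 and 242 CPM in Sham. Its groups overlapped and its log2 fold change of 0.12 (SE 0.13) did not pass the test. Per kilobase, Hk2 was 35.3% ± 3.73 of hexokinase transcripts in TAC and 52.9% ± 3.69 in Sham. The Hk2 to Hk1 ratio lay below 1 in every TAC library (0.452 to 0.659) and above or close to 1 in Sham (0.929 to 1.35), a difference of -1.04 (SE 0.14) on the log2 scale. Its place beside 1 depends on the merged lengths, 5969 bases for Hk2 and 8532 for Hk1. Hk3, a hexokinase of blood leukocytes, averaged 2.37 ± 0.740 CPM in TAC and 1.55 ± 0.576 CPM in Sham, with no call. Gpi1, which interconverts glucose 6-phosphate and fructose 6-phosphate, averaged 470.1 ± 37.1 CPM in TAC and 544 ± 33.3 CPM in Sham, a change of -0.21 (SE 0.08) that only just passed the test (edgeR adjusted p = 0.0498) and was lost when any of 8 libraries was left out.

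Phosphofructokinase, the committed step, had 1 subunit gene lower and 2 subunit genes higher in TAC. Pfkm, the muscle subunit, lies on chromosome 15, 98092589 to 98132451 (GRCm38, plus strand). It stood at 481, 342, 388, 368 and 385 CPM in TAC, against 923, 1044, 983, 1057 and 1184 CPM in Sham. Even the highest TAC library lay far below the lowest Sham library. Pfkl, the liver subunit, had 132, 157, 146, 162 and 178 CPM in TAC, against 78.3, 98.3, 112, 103 and 80.6 CPM in Sham. Pfkp, the platelet subunit, had 147, 117, 127, 121 and 95.1 CPM in TAC, against 44.6, 51.1, 35.01, 44.1 and 55.1 CPM in Sham. The groups overlapped for neither gene, and both moved against Pfkm. The log2 fold changes were -1.40 (SE 0.11) for Pfkm, 0.72 (SE 0.11) for Pfkl and 1.40 (SE 0.14) for Pfkp, with edgeR adjusted p of 2.75e-06, 0.000257 and 8.5e-06. Per kilobase, Pfkm made up 78.2% ± 2.53 of the family in TAC and 94.6% ± 0.665 in Sham. Pfkl made up 15.7% ± 2.72 in TAC and 4.33% ± 0.763 in Sham, and Pfkp 6.05% ± 0.724 in TAC and 1.04% ± 0.136 in Sham. The Pfkp share rests on a merged length of 13401 bases, beside 3340 for Pfkm and 6675 for Pfkl. The Pfkm to Pfkp ratio was 7.02 times lower in TAC (log2 difference -2.81, SE 0.12) and the Pfkm to Pfkl ratio 4.38 times lower (log2 difference -2.13, SE 0.19).

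The PFKFB enzymes make and remove fructose 2,6-bisphosphate, the strongest activator of phosphofructokinase. Only Pfkfb4 among them was called: it had 5.04, 11.1, 8.79, 8.28 and 6.28 CPM in TAC, against 3.35, 3.26, 3.19, 4.97 and 3.53 CPM in Sham, without overlap (log2 fold change 1.10, SE 0.22, edgeR adjusted p = 0.00112). Pfkfb2, the heart form, averaged 9.53 ± 1.30 CPM in TAC and 11.5 ± 1.82 CPM in Sham, and its change of -0.28 (SE 0.13) did not pass. Pfkfb3, the inducible form, averaged 22.6 ± 3.63 CPM in TAC and 21.9 ± 3.61 CPM in Sham and was the most abundant of the 4 per kilobase, at 48.7% ± 3.59 of the family in TAC and 52.0% ± 7.01 in Sham. Pfkfb1, classed here with the other-tissue forms, lay near 1 CPM, at 0.819 ± 0.131 CPM in TAC and 1.27 ± 0.661 CPM in Sham. The ratio of Pfkfb2 to Pfkfb3 did not differ past the threshold (log2 difference -0.32, SE 0.25, exact permutation p = 0.246 adjusted over the 11 pairs), although without Sham replicates 1 and 2 it was -0.62 with an adjusted exact permutation p of 0.0393.

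**Figure D2:**
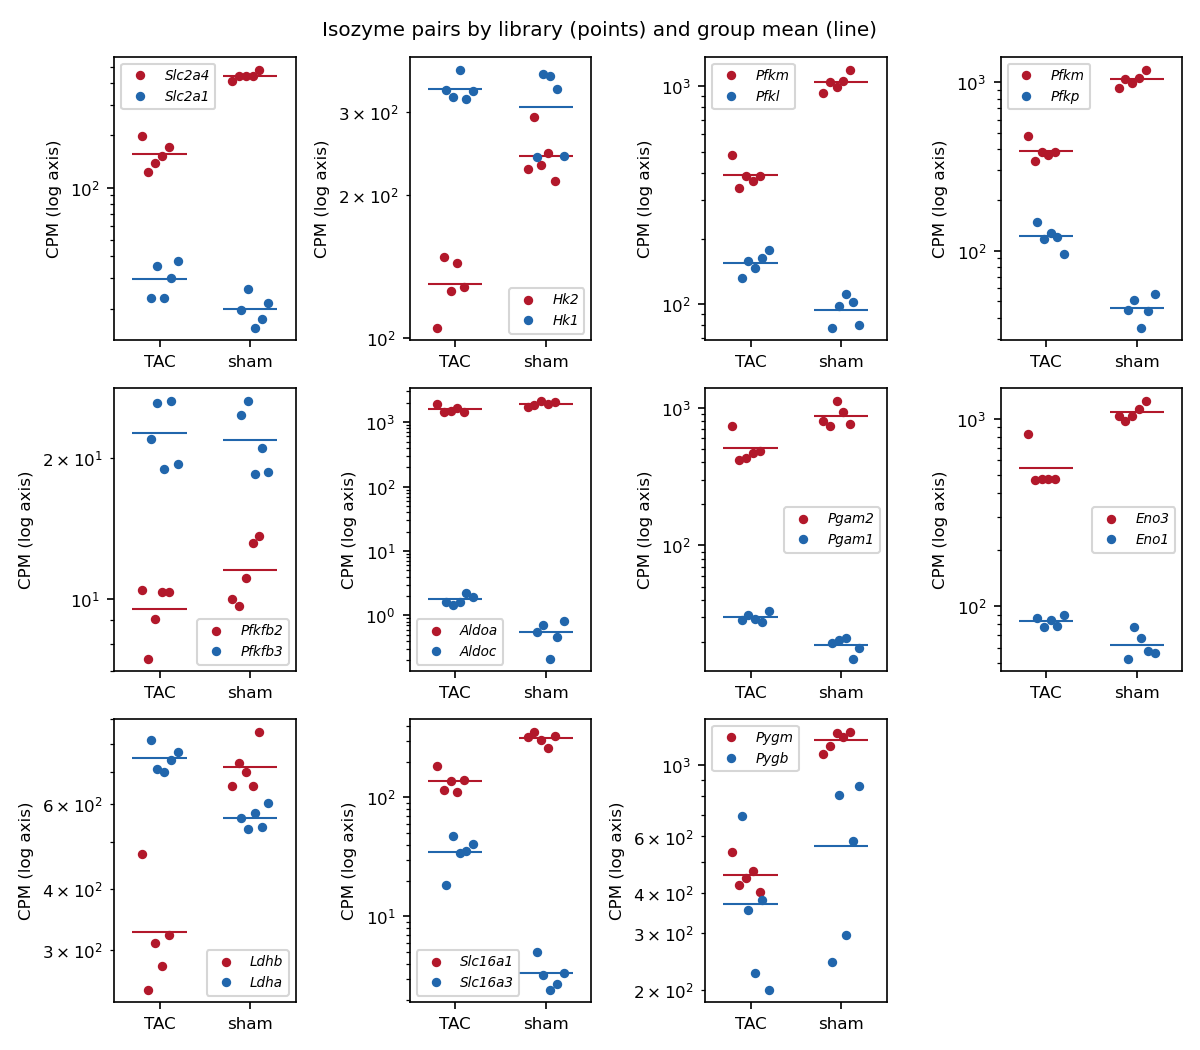
CPM on a log axis for both genes of each of the 11 isozyme pairs, with the muscle or heart form in red, the other form in blue, 1 point per library and a line at the group mean (n = 5). In the phosphofructokinase panels the red points are lower and the blue points higher in TAC, as for Slc2a4 and Slc2a1, while the Pygb points are scattered from 201 to 694 CPM in TAC and from 244 to 863 CPM in Sham.

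From aldolase to pyruvate kinase, the muscle forms Pgam2 and Eno3 were lower in TAC, their widespread forms were higher, and Aldoa, Tpi1 and Gapdh passed no test. Aldoa, the aldolase of muscle, had 1952, 1434, 1467, 1674 and 1445 CPM in TAC and 1703, 1836, 2144, 1945 and 2087 CPM in Sham. Per kilobase of merged exon only Pgam2 stood above it among the 34 genes, with Aldoa at 548 CPM per kilobase in TAC and 667 in Sham. This order depends on the merged lengths, such as 2911 bases for Aldoa and 4133 for Gapdh. Its groups overlapped through TAC replicate 1, and its change of -0.29 (SE 0.12) missed the threshold (edgeR adjusted p = 0.0575). Aldoc, the aldolase of brain, was rare, at 1.62, 1.45, 1.63, 2.23 and 1.90 CPM in TAC, against 0.559, 0.703, 0.213, 0.464 and 0.826 CPM in Sham. It was higher in every TAC library (log2 fold change 1.70, SE 0.31, edgeR adjusted p = 0.000693), but it remained 0.0997% ± 0.0189 of aldolase transcripts per kilobase in TAC and 0.0258% ± 0.0109 in Sham. Its smallest Sham library held 7 counts.

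The enzymes of the middle of the pathway that have no partner here moved in both directions or passed no test. Tpi1, triosephosphate isomerase, averaged 603 ± 94.1 CPM in TAC and 655 ± 36.1 CPM in Sham, and Gapdh, which is often taken as a constant control gene, 1018 ± 231 CPM in TAC and 1179 ± 34.6 CPM in Sham. Neither was called, and for both TAC replicate 1 was the highest of all 10 libraries (757 CPM for Tpi1 and 1380.0 CPM for Gapdh). With that library left out, Gapdh was called lower (log2 fold change -0.33, edgeR adjusted p = 0.0129), and with scaling by total counts alone its change of 0.14 had the opposite sign. Pgk1, phosphoglycerate kinase, an X-linked gene, was higher, at 169.6 ± 14.9 CPM in TAC and 134 ± 11.9 CPM in Sham (log2 fold change 0.34, SE 0.08, edgeR adjusted p = 0.00472). Pkm, pyruvate kinase, whose muscle and embryonic splice forms are counted as 1 gene in these tables, was lower without overlap, at 765 ± 35.8 CPM in TAC and 915 ± 57.8 CPM in Sham (log2 fold change -0.26, SE 0.08, edgeR adjusted p = 0.0188), and lost that call without TAC replicate 3 or 5. Pkm changed sign, to 0.10, with scaling by total counts alone.

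Phosphoglycerate mutase and enolase each have a muscle gene and a widespread gene, and both pairs parted in TAC. The sequences just before the RefSeq starts of the 2 mutase genes are shown because these genes moved apart and because their promoters differ in CpG content, the feature that marks the promoters of many widely used genes. Each is 250 bases from the RefSeq annotation of GRCm38.p6, written 5′ to 3′ on the strand of the gene, with CpG in capitals.
Pgam2, chr11:5803797-5804046, minus strand: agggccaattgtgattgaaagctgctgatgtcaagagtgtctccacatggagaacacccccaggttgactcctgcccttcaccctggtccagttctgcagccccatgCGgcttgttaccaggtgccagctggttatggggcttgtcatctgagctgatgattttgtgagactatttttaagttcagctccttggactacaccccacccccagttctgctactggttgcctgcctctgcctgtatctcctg
Pgam1, chr19:41911621-41911870, plus strand: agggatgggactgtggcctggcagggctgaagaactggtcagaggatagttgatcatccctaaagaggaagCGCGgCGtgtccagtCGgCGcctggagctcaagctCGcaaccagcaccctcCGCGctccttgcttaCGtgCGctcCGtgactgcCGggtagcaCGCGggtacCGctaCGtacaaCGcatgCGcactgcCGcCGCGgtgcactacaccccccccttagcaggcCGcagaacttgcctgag
The Pgam2 window held 1 CpG and the Pgam1 window 22, beside a median of 6 over 32841 windows of the same length and quartiles of 2 and 16. A match to the MEF2 motif, which many muscle genes carry, lay 80 to 71 bases before the Pgam2 start, and 2.92% of all windows held such a match on either strand. Of the 51 windows of the genes described here, 2 held one, the other being 1 of the 4 windows of Pfkfb1, classed here with the other-tissue forms. None of the other muscle or heart forms with a window had a match. These matches are descriptions of sequence and not of binding.

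Pgam2 fell and Pgam1 rose. Pgam2, the muscle mutase, had 741, 414, 429, 467 and 486 CPM in TAC, against 801, 736, 1119.5, 922 and 763 CPM in Sham. TAC replicate 1 lay just inside the Sham range and the other 4 far below it (log2 fold change -0.78, SE 0.18, edgeR adjusted p = 0.00268). Pgam1, the form of most tissues, had 28.5, 31.4, 29.3, 27.6 and 33.1 CPM in TAC, against 19.6, 20.4, 21.2, 15.05 and 17.9 CPM in Sham. All TAC libraries lay above all Sham libraries (log2 fold change 0.68, SE 0.10, edgeR adjusted p = 0.000141). Per kilobase Pgam2 remained 97.4% ± 0.585 of mutase transcripts in TAC and 99.1% ± 0.188 in Sham. The ratio of Pgam2 to Pgam1 ran from 31.1 to 61.5 in TAC and from 85.1 to 144 in Sham, without overlap, so the pair separated the groups where Pgam2 alone did not.

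Enolase had 3 genes to compare. Eno3, the muscle enolase, had 825, 469, 479, 478 and 474 CPM in TAC, against 1036, 977, 1041, 1131 and 1246 CPM in Sham. TAC replicate 1 stood well above the other 4 TAC libraries, which were nearly equal, and still below all Sham libraries (log2 fold change -0.99, SE 0.17, edgeR adjusted p = 0.000349). Eno1, the widespread enolase, had 86.6, 77.4, 84.4, 78.4 and 90.0 CPM in TAC, against 52.5, 77.0, 67.2, 57.8 and 56.4 CPM in Sham. The gap between the lowest TAC and the highest Sham library was small, and the rise was 0.42 (SE 0.10, edgeR adjusted p = 0.00387). Eno2, the enolase of neurons and neuroendocrine cells, had 2.85, 31.4, 14.6, 3.55 and 11 CPM in TAC, against 2.05, 2.24, 1.64, 3.56 and 3.26 CPM in Sham. TAC replicates 1 and 4 lay within the Sham range while replicate 2 was far above it. The log2 fold change of 2.30 (SE 0.61, edgeR adjusted p = 0.00794) became 1.65 without TAC replicate 2 and did not pass with limma voom (adjusted p = 0.0817). Per kilobase Eno3 was 94.2% ± 1.50 of the family in TAC and 98.1% ± 0.413 in Sham, and its ratio to Eno1 was 2.76 times lower in TAC.

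Lactate formation and transport held the largest change among the 34 genes, a rise of the lactate exporter gene Slc16a3. Ldha and Ldhb encode the subunits of lactate dehydrogenase: the A subunit predominates in glycolytic tissue and the B subunit in the adult heart. Ldha had 815, 708, 698, 741 and 769 CPM in TAC, against 561, 533, 575, 539 and 602 CPM in Sham, without overlap (log2 fold change 0.41, SE 0.08, edgeR adjusted p = 0.00114). Ldhb had 474, 248, 310.1, 278 and 322 CPM in TAC, against 653, 731, 699, 654 and 847 CPM in Sham. Every TAC library lay below every Sham library (log2 fold change -1.14, SE 0.16, edgeR adjusted p = 0.000121). Per kilobase the B subunit made up 47.4% ± 4.86 of lactate dehydrogenase transcripts in TAC and 72.8% ± 1.65 in Sham. The Ldhb to Ldha ratio was 1.22, 0.738, 0.936, 0.790 and 0.881 in TAC, against 2.45, 2.89, 2.56, 2.56 and 2.97 in Sham. In 4 of 5 TAC libraries the A subunit was therefore the more abundant transcript per merged length, and in all 5 Sham libraries the B subunit was. These lengths were 3310 bases for Ldha and 1570 for Ldhb.

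Lactate crosses the cell membrane through the monocarboxylate transporters MCT1, encoded by Slc16a1 and known for lactate uptake in heart muscle, and MCT4, encoded by Slc16a3 and known for lactate export from glycolytic cells. MCT4 is a known target of the hypoxia-inducible factor HIF-1, whose binding sites often contain ACGTG. Other forms of the site were not searched. The windows before both RefSeq starts are shown with the motif ACGTG, searched on both strands, in capitals. In Slc16a1 the marked run is palindromic and holds the motif on each strand.
Slc16a3, chr11:120948817-120949066, plus strand: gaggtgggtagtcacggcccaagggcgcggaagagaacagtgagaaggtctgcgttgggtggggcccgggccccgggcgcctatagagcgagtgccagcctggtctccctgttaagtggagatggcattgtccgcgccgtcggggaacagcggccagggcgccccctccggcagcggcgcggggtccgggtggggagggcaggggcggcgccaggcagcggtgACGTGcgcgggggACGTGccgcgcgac
Slc16a1, chr3:104638414-104638663, plus strand: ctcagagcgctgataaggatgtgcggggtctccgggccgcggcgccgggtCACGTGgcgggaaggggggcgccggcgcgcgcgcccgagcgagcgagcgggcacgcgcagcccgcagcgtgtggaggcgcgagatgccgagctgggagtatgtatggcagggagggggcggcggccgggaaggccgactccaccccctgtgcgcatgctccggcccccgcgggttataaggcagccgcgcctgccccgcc
Both windows held the motif 2 times although the genes moved in opposite directions. Among the 33 genes with a window, 16 had the motif in at least 1 window (20 of 51 windows), and 16.6% of all windows held it. Slc16a1 and Slc16a3 were also both rich in CpG, with 37 and 29, so CpG content did not divide this pair as it did the mutases. The highest CpG count over a gene's windows had a median of 11 for 10 muscle or heart forms, 3 of them under 5. For the 15 widespread forms it was 16, with 0 of them under 5. The lowest of these, Aldoc, held 5, and single windows of Hk1 and Pfkfb1 held 1 and 0. By this highest count Hk2 (25) stood above Hk1 (14), and Aldoa (21) above Aldoc. Pgam2, Eno3, Pfkm, Pfkfb2, Ldhb and Pygm stood below their partners.

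Slc16a1 had 185, 116, 139, 111 and 139 CPM in TAC, against 321, 356, 302, 262 and 326 CPM in Sham, without overlap (log2 fold change -1.18, SE 0.14, edgeR adjusted p = 3.17e-05). Slc16a3 had 18.4, 47.1, 33.96, 35.5 and 40.3 CPM in TAC, against 5.03, 3.19, 2.43, 2.73 and 3.38 CPM in Sham. The lowest TAC library, replicate 1, stood well above the highest Sham library. The rise was 10.7-fold (log2 fold change 3.41, SE 0.27, edgeR adjusted p = 3.21e-06). Per kilobase Slc16a3 made up 18.0% ± 6.56 of the transcripts of both transporters in TAC and 0.882% ± 0.240 in Sham. The Slc16a1 to Slc16a3 ratio ran from 2.97 to 12.1 in TAC and from 76.3 to 148 in Sham, and its log2 difference of -4.56 (SE 0.38) was the largest of the 11 pairs.

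**Figure D3:**
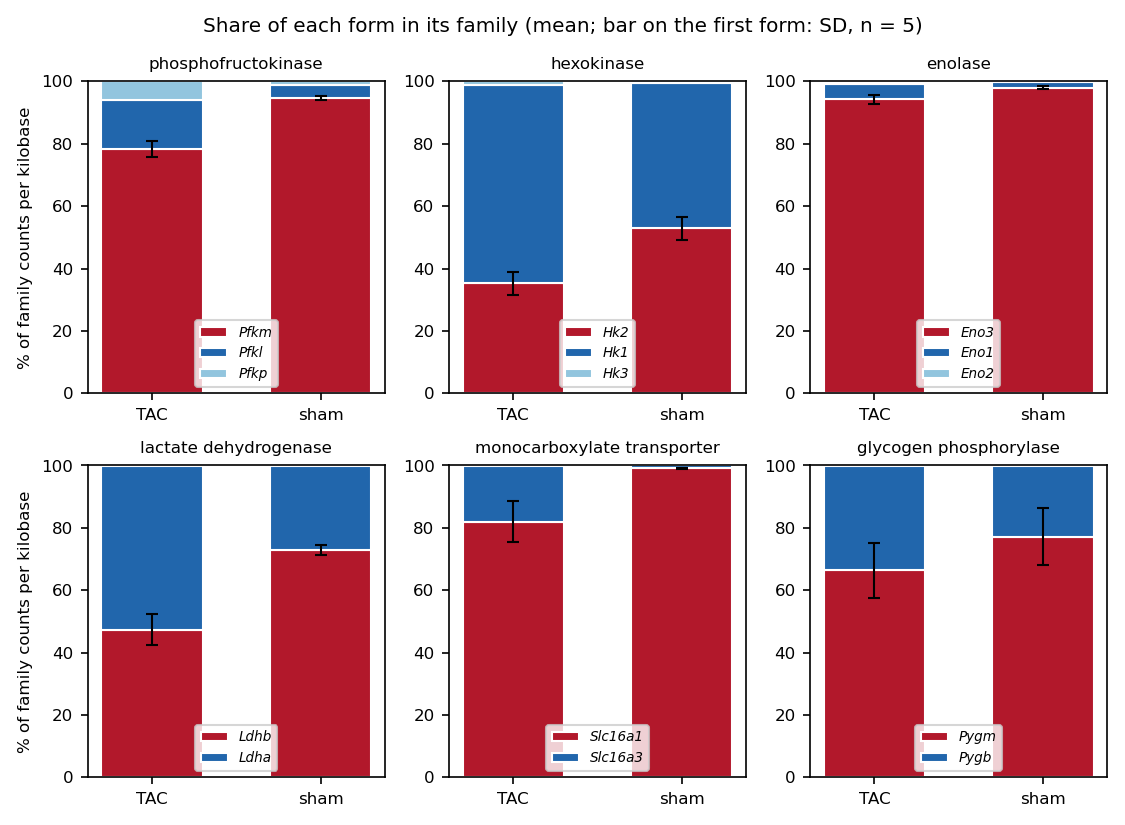
Mean share of each isozyme in the counts per kilobase of its family, TAC left and Sham right, with the bar showing the SD of the first, red form (n = 5). The red form takes a smaller mean share in TAC in all 6 families, and for Pygm the SD bars overlap. The drop is largest for Ldhb (47.4% in TAC against 72.8% in Sham) and smallest for Eno3 (94.2% in TAC against 98.1% in Sham).

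Glycogen is the stored form of glucose, built by glycogen synthase and branching enzyme on a glycogenin core and cut by glycogen phosphorylase. The muscle and brain forms of the phosphorylase are encoded by Pygm and Pygb, and the windows before their RefSeq starts are shown with CpG in capitals because they also differ in this feature.
Pygm, chr19:6384158-6384407, plus strand: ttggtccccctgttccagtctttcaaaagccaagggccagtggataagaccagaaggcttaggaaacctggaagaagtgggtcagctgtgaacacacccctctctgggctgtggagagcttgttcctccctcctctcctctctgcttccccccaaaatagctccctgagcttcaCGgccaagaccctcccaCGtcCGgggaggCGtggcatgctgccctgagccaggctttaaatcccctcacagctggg
Pygb, chr2:150786546-150786795, plus strand: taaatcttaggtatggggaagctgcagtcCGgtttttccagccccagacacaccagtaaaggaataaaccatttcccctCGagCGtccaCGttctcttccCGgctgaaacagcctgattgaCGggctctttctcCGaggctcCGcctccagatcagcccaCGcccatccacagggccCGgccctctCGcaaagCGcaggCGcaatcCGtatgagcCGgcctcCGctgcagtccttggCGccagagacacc
The Pygm window held 4 CpG and the Pygb window 17.

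Pygm had 539, 423, 445, 470.1 and 403 CPM in TAC, against 1081, 1147, 1259.8, 1222 and 1268 CPM in Sham. Every TAC library lay far below every Sham library, and the change was -1.39 (SE 0.10, edgeR adjusted p = 1.74e-06), with the smallest adjusted p of the 34 genes. Pygb had 694, 354, 225, 381 and 201 CPM in TAC and 244, 809, 297, 580.3 and 863 CPM in Sham. It varied several-fold inside each group, and its change of -0.59 (SE 0.42) did not pass the test (edgeR adjusted p = 0.255). The Pygm to Pygb ratio ran from 1.16 to 3.001 in TAC and from 2.12 to 6.61 in Sham, and the difference of -0.84 (SE 0.44) did not pass (exact permutation p = 0.122 adjusted over the 11 pairs).

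The synthesis side moved less. Gys1, the glycogen synthase of muscle, averaged 95.7 ± 7.87 CPM in TAC and 137 ± 16.0 CPM in Sham, without overlap (log2 fold change -0.52, SE 0.09, edgeR adjusted p = 0.00055). Gbe1, the branching enzyme, averaged 59.8 ± 8.12 CPM in TAC and 79.0 ± 4.28 CPM in Sham, also without overlap (log2 fold change -0.40, SE 0.09, edgeR adjusted p = 0.00332). Scaling by total counts alone took away both calls, at -0.16 and -0.04. Ugp2, which makes UDP-glucose, averaged 186 ± 35.6 CPM in TAC and 218 ± 12.4 CPM in Sham, and Gyg, glycogenin, 157 ± 30.4 CPM in TAC and 158 ± 23.1 CPM in Sham, with no call for either.

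Over the 11 isozyme pairs, every mean ratio of the muscle or heart form to its partner was lower in TAC, and 9 of the 11 pairs passed the test. For these 9 pairs the TAC and Sham libraries did not overlap, which gives an exact two-sided permutation p of 0.00794, the smallest that 252 regroupings allow, and 0.0097 after adjustment over the 11 pairs. Pfkm enters 2 pairs, so the pairs are not independent. The pairs were also chosen with earlier results of these data known, which these p-values do not take into account. The differences of the pairs that passed ran from -4.56 for Slc16a1 to Slc16a3 to -1.04 for Hk2 to Hk1, with a median of -1.57 over all 11 pairs. Adding the counts of near-identical copies to their parent genes, an alternative chosen after the data were seen, changed no call among the 34 genes. The added copies of Pgk1 (0.595 CPM in TAC, 0.665 CPM in Sham) and Pgam1 (0.187 CPM in TAC, 0.161 CPM in Sham) were small. Reads tallied as not unique are in no gene's count, so the check cannot show their effect. Shared sequence was greatest for Pgk1, Pgam1 and Eno1, of whose 50-base stretches 53.9%, 36.2% and 26% also occur in other genes. The nearest Eno1 copy, Eno1b, itself had 15.2 ± 1.23 CPM in TAC and 6.82 ± 2.19 CPM in Sham.

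**Figure D4:**
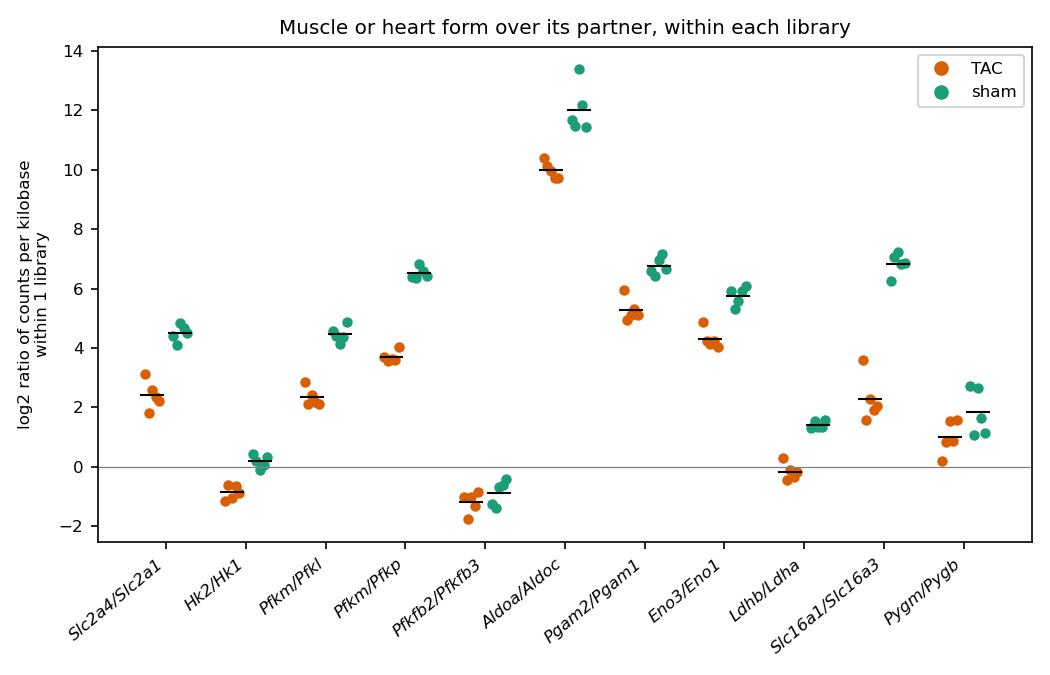
Log2 ratio of counts per kilobase of the muscle or heart form over its partner in each library, TAC in orange left of Sham in green, with a black line at each group mean (n = 5). For 9 pairs all TAC points lie below all Sham points, with the widest gap for Slc16a1/Slc16a3, and the groups overlap for Pfkfb2/Pfkfb3 and Pygm/Pygb.

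**Figure D5:**
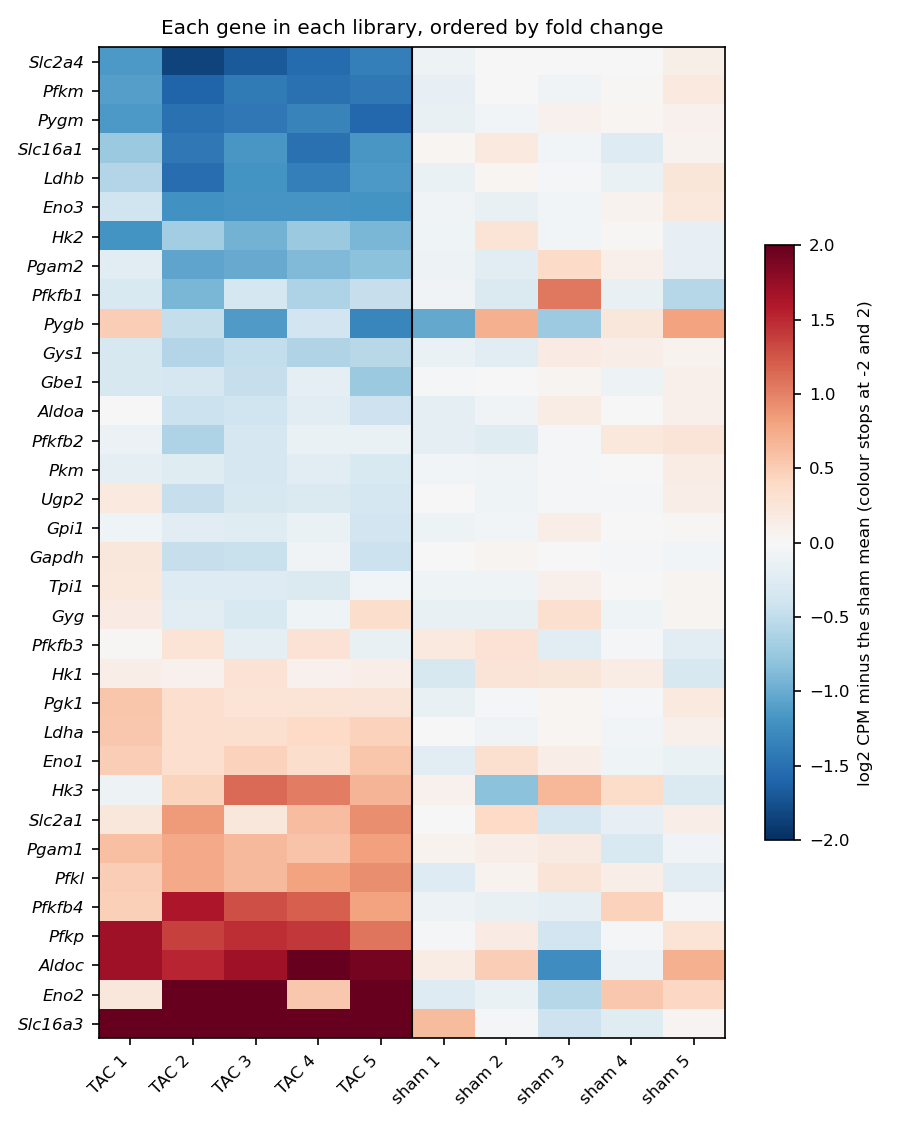
Each of the 34 genes in each library as log2 CPM minus the Sham mean of that gene, ordered by fold change from the lowest at the top, with colour ending at -2 and 2. The blue block of muscle isozymes and the red block of widespread isozymes run through all 5 TAC libraries, TAC replicate 1 is the palest for many genes, and Pygb and Eno2 change from library to library.

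Genes around the pathway were read from lists by role. Among all tested genes, 28.9% were higher and 27.9% lower, or 51% and 12.7% with scaling by total counts alone. The counts of each list are to be read beside these shares. Of 13 tested genes of other glucose uptake and insulin signalling, 4 were higher and 8 lower in TAC, or 4 and 4 with scaling by total counts alone. Tbc1d4, also called AS160, which holds GLUT4 inside the cell until insulin acts, averaged 60.2 ± 3.40 CPM in TAC and 167 ± 20.9 CPM in Sham (log2 fold change -1.47). Txnip, an inhibitor of glucose uptake that glucose itself induces, averaged 252.1 ± 41.8 CPM in TAC and 631 ± 145 CPM in Sham (-1.32), and its relative Arrdc4 went the other way, with 17.8 ± 1.39 CPM in TAC and 11.8 ± 2.15 CPM in Sham (0.58). Of 12 other glycolysis and gluconeogenesis genes, 2 were higher and 6 lower, or 4 and 4 under that scaling. Among them were the D-lactate dehydrogenase gene Ldhd at 6.33 ± 0.918 CPM in TAC and 20.6 ± 2.78 CPM in Sham (-1.70), and Pck2, the mitochondrial phosphoenolpyruvate carboxykinase, at 24.2 ± 2.80 CPM in TAC and 12.1 ± 1.38 CPM in Sham (1.0).

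Other glycogen genes were higher for 2 and lower for 11 of 21, or 4 and 6 with scaling by total counts alone. Phosphorylase kinase switches glycogen phosphorylase on, and its muscle catalytic subunit gene Phkg1 averaged 7.06 ± 2.74 CPM in TAC and 77.1 ± 6.63 CPM in Sham (log2 fold change -3.44, SE 0.23, edgeR adjusted p = 1.31e-06). Its regulatory subunit gene Phkb averaged 54.4 ± 2.01 CPM in TAC and 92.1 ± 8.68 CPM in Sham (-0.76). The testis and liver catalytic subunit gene Phkg2, named here after its values were seen, averaged 7.58 ± 0.775 CPM in TAC and 4.87 ± 0.463 CPM in Sham (0.64) and was thus higher while Phkg1 was lower. Pgm1, a phosphoglucomutase gene, was also higher, at 8.80 ± 0.717 CPM in TAC and 5.55 ± 0.341 CPM in Sham (0.67). The more abundant phosphoglucomutase gene Pgm2, named here after its values were seen, was lower. It averaged 128 ± 9.13 CPM in TAC and 183 ± 10.6 CPM in Sham (-0.51).

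Among 5 lactate and pyruvate transport genes, the mitochondrial pyruvate carrier gene Mpc2 was lower, at 122 ± 39.5 CPM in TAC and 208 ± 28.3 CPM in Sham (-0.77). Emb, which encodes embigin, a partner protein of monocarboxylate transporters, was higher, at 15.01 ± 3.60 CPM in TAC and 6.03 ± 3.04 CPM in Sham (1.34). The pentose phosphate pathway, which branches off at glucose 6-phosphate, had 4 of 8 genes higher and 1 lower. Pgd, of its oxidative arm, averaged 43.2 ± 3.18 CPM in TAC and 32.6 ± 2.37 CPM in Sham (0.41), and Taldo1, of its non-oxidative arm, 71.2 ± 1.39 CPM in TAC and 85.6 ± 1.62 CPM in Sham (-0.27). With scaling by total counts alone, 6 of these 8 were higher and 0 lower. Hexosamine and polyol genes were higher for 1 and lower for 7 of 10, with Khk, the fructose kinase, at 5.33 ± 1.02 CPM in TAC and 15.04 ± 2.86 CPM in Sham (-1.50) and Gnpnat1, of the hexosamine route to UDP-N-acetylglucosamine, at 11.4 ± 0.770 CPM in TAC and 6.97 ± 0.614 CPM in Sham (0.71). Under the same scaling 4 of these 10 were called higher and 1 lower, while only 1 changed sign and the median log2 fold change was -0.12.

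Regulators of glucose metabolism were higher for 4 and lower for 10 of 19, or 7 and 8 with scaling by total counts alone. Hif1a, the oxygen-regulated subunit of HIF-1, which induces many glycolytic genes, averaged 162 ± 25.5 CPM in TAC and 63.8 ± 3.56 CPM in Sham (log2 fold change 1.35, SE 0.10, edgeR adjusted p = 2.11e-06). Prkag2, which encodes a gamma subunit of AMP-activated protein kinase, averaged 421 ± 41.0 CPM in TAC and 191 ± 20.02 CPM in Sham (1.14). Among the regulators that were lower, and named after their values were seen, Epas1, which encodes the HIF-2 alpha subunit, averaged 155 ± 19.4 CPM in TAC and 353 ± 39.4 CPM in Sham (-1.19), and Ppargc1a, a coactivator of mitochondrial genes, 55.4 ± 16.2 CPM in TAC and 159 ± 32.8 CPM in Sham (-1.52). Of 14 hypoxia-inducible genes outside glycolysis, 9 were higher and 3 lower, or 9 and 1 with scaling by total counts alone. Vegfa, a growth factor for blood vessels, averaged 139 ± 13.5 CPM in TAC and 81.2 ± 8.18 CPM in Sham (0.78), Bnip3l, a mitophagy receptor, 68.6 ± 2.93 CPM in TAC and 51.2 ± 3.35 CPM in Sham (0.42), and Egln1, the main prolyl hydroxylase that marks HIF-1 for removal, 188 ± 21.2 CPM in TAC and 315 ± 45.6 CPM in Sham (-0.75).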

How the data were processed

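RNA was sequenced in 5 TAC and 5 Sham libraries, grouped by their titles. The deposited values are raw counts per gene symbol, 1 table per library, unnormalized. Per the submitters' processing notes, STAR, bcl2fastq and the build mm10 were used, with no versions named. How reads were assigned to genes, with which annotation and strand setting, is not given in the sources used here, so reads of a gene and an antisense neighbour cannot be told apart. The labels name the RNeasy Plus Mini and Nugen Trio kits and the design text RNeasy and TruSeq kits, and which was used is not known here. The 5 closing tallies that name no gene were kept out; they averaged 3.76% of reads in TAC and 3.12% in Sham for no feature, 5.79% in TAC and 4.31% in Sham for ambiguous, 13.4% in TAC and 15.8% in Sham for not unique, and 4.62% in TAC and 4.12% in Sham for not aligned.

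Counts were tested with edgeR 4.0.16 in R 4.3.3 (TMM, filterByExpr, robust quasi-likelihood F test, group as the only term), and the SE is the log2 fold change over the square root of F. Isozyme ratios were taken within a library with 0.5 added to each count. Ratios and shares per kilobase used merged exon lengths of GENCODE M21 on GRCm38, the assembly also called mm10, where Aldoa has 2 gene identifiers and the lower was used. Coordinates come from it too. Promoter windows are from RefSeq, and Slc2a4 had none. The tests were checked on simulated data, where the pass mark of the ratio test was loosened to a p under 0.05 after its single simulated draw missed a stricter one. The members, isozyme classes, gene lists and tests were chosen with earlier results of these data known. Genes outside the 34 were named by a rule: up to 2 called genes of a list with the smallest adjusted p, plus 1 of the rarer direction. Alternatives were other scalings, filters and thresholds, DESeq2 1.42.0, limma voom (limma 3.58.1), the replicate number as a block, and libraries left out. Same-numbered libraries showed no shared deviation, and the main fit used no pairing by number. Tables were made with Python 3.11.15.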

Additional observations from a re-analysis of the deposited data

Results flagged for a closer look

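Of 90 groups of 5 values checked for a library far from the others, 8 had one, and chance alone gives about 1 in 20 such groups. TAC replicate 1 accounted for 5 of the 8. It had 196 CPM of Pgk1, where the other TAC libraries had 159 to 169 CPM, 741 CPM of Pgam2 (others 414 to 486 CPM), 825 CPM of Eno3 (others 469 to 479 CPM) and 249 CPM of Ugp2 (others 159 to 179 CPM). Its log2 ratio of Eno3 to Eno1 counts was 3.25, where the others had 2.40 to 2.61. TAC replicate 3 had 367 CPM of Hk1 (others 319 to 333 CPM). Sham replicate 3 had 2.43 CPM of Pfkfb1 (others 0.788 to 1.12 CPM), and Sham replicate 4 had 4.97 CPM of Pfkfb4 (others 3.19 to 3.53 CPM). Mitochondrially encoded genes took 14.2% of the counts of TAC replicate 1, beside 10.99% ± 2.10 over the TAC libraries and 16.3% ± 1.42 over the Sham libraries (SD, n = 5 each), and the part of this in its values was not tested.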

How the results depend on the processing

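Of the isozyme pairs, the 9 that passed kept their direction and their adjusted p under 0.05 with each library left out (largest adjusted exact permutation p 0.0194), with 5 added to each count and without both shallow Sham libraries. Without those, Pfkfb2/Pfkfb3 passed as well, at -0.62. Same-numbered libraries did not deviate together (correlations from -0.0934 to 0.0869, where any TAC and Sham pair ran from -0.17 to 0.224). The titles do not say what the numbers stand for, and these correlations cannot decide whether they mark a pairing. With the replicate block, a sign-flip test over 5 differences cannot give a p below 0.0625: the 9 differences, which the block leaves as they were (-2.09, -1.04, -2.13, -2.81, -2.03, -1.47, -1.46, -1.57 and -4.56 in the order of the ratio plot), had an adjusted p of 0.0764. The block in edgeR gave 4103 genes higher and 3917 lower, and 11 and 10 of the 34, without Gpi1 and Pkm.

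With scaling by total counts alone, 7741 genes were higher and 1929 lower, and the log2 fold changes of Gpi1 (0.15), Pfkfb2 (0.091), Aldoa (0.074), Tpi1 (0.24), Gapdh (0.14), Pkm (0.10), Ugp2 (0.12) and Gyg (0.35) turned positive, those of Tpi1 and Gyg with a call. The median of all tested genes moved to 0.37 under it. With a log2 fold change of at least 1 required, 1781 genes were higher and 1229 lower, with 5 and 5 of the 34, namely 5 of the muscle or heart forms and 5 of the widespread forms. Gyg, near 0, changed sign with upper quartile factors (0.036) and with no filter (0.0075). With each library left out, Gyg ranged from -0.10 to 0.073 and Pfkfb3 from -0.0070 to 0.13. Over the single libraries left out, 11 to 12 of the 34 were higher and 10 to 15 lower, 9 to 10 of the muscle forms lower and 10 to 11 of the widespread forms higher; without both shallow Sham libraries all 11 muscle forms were lower. The alternatives for these isozyme counts were added after the data were seen. Aldoa was called lower with DESeq2 and limma voom and without TAC replicate 1 or Sham replicate 1, and Ugp2 and Gapdh lower and Hk3 higher without TAC replicate 1. The smallest count in a library was 7 for Aldoc, 13 for Hk3 and 15 for Pfkfb1, which limits the precision of these genes.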

Other observations

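Pygb stood out by its spread, which was noticed after the data were seen. Its coefficient of variation was 53.1% in TAC and 50.8% in Sham. Of 1648 tested genes with a mean of at least 100 CPM, 4, Pygb among them, varied at least as much as Pygb in both groups. Deviations of each gene from its group mean were correlated with those of Pygb over the 10 libraries, as a description without a test, since many high correlations arise when 14703 genes are compared over 10 libraries. Of the 50 genes with the largest absolute correlation, 17 (34%) lay on chromosome 2, the chromosome of Pygb, which holds 7.84% of tested genes, and 10 lay within 20 Mb of it. For each of the other 33 genes described here, 0% to 12% of the 50 most correlated genes shared its chromosome. The cause was not tested.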
